A study of Mus musculus with 6 samples.

Results

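Mature osteoblasts of the fracture callus were taken from 6 single-cell libraries by a rule on a few genes. A barcode was kept if it held at least 3000 unique molecular identifiers (UMIs, 1 per captured transcript) and at most 10% mitochondrial UMIs. It then needed at least 3 UMIs of Ifitm5, at least 0.5% of its UMIs from Bglap and Bglap2 together, at most 1 UMI of Ptprc (the pan-leukocyte gene) and at most 1 UMI of Cdh5 (an endothelial cadherin). Cells with both at least 5 Dmp1 UMIs and at least 2 Phex UMIs, genes of osteocytes, were set apart. The rule found 264 cells among 46944 barcodes, 0.562%.

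The calluses came from femoral fractures of 12-week-old mice, described as male in the study's methods, and were dissociated at 14 days post fracture. Control mice are Piezo1f/f in the methods and carry the genotype label wt, and there are 3 control libraries. Knockout mice (Piezo1Col2a1) carry Col2CreERT2 with floxed Piezo1, and their 3 libraries are labelled CKO, with a genotype label that names Piezo3 where the series design text names Piezo1. Both groups received tamoxifen (75 mg/kg) daily for 5 days, beginning on day 5 after fracture. The Cre is driven by Col2a1, so deletion starts in cells of the chondrocyte lineage, and an osteoblast carries it only if it or a forebear expressed Col2a1. A 3′ library can count Piezo1 whether or not the floxed exons are present, so the Piezo1 count was not read as a measure of deletion. The labels do not say how many mice went into a library. The paper's methods give 3 mice of each genotype for this experiment, and its results section gives larger numbers. The p-values therefore measure the spread between these libraries.

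Libraries differed far more in the number of osteoblasts than in depth. The control libraries held 69361237, 77384286 and 80735192 UMIs and gave 3, 10 and 7 osteoblasts. The knockout libraries held 57626530, 103784364 and 102513582 UMIs and gave 0, 233 and 11. Knockout library 2 thus held 88.3% of all members, knockout library 1 held none, and 31 cells came from the other libraries. Values per library below are UMIs summed over a library's osteoblasts and scaled to a common total (counts per 1000000, CPM), and they rest on 191147, 164592 and 108902 UMIs in control libraries 1 to 3 and on 4429924 and 181258 UMIs in the knockouts. A CPM for 3 to 11 cells carries the counting error of these sums and the peculiarities of few cells.

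Knockout library 3 stood apart from the description of the mice. Its osteoblasts held Xist, the RNA of the inactive X chromosome, at 452 CPM, and the osteoblasts of the other 4 libraries held 0. The Y-linked Ddx3y was at 36.6, 60.8 and 45.9 CPM in control libraries 1 to 3, at 35.7 CPM in knockout library 2 and at 0 in knockout library 3. The other non-immune cells of that library showed the same, with Xist at 536 CPM. Counts of genes and a number of named values are also given without it. Among all pairs of libraries 222 cell barcodes were shared, and none of them was an osteoblast in either library. Scrublet scores marked 7 of the 264 cells as likely doublets, all in knockout library 2.

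Mature osteoblasts lay down the type I collagen of bone, load it with acidic and calcium-binding proteins and then mineralise it, and some of them become buried as osteocytes. Bglap and Bglap2 encode osteocalcin, a small calcium-binding protein of bone matrix made late in this sequence. Ifitm5 encodes a membrane protein of the IFITM family that is largely restricted to bone, and a recurrent mutation in its human counterpart causes a form of osteogenesis imperfecta. Car3 encodes a cytosolic carbonic anhydrase, and Slc36a2 a proton-coupled transporter of small amino acids. In a healing callus such cells sit beside cartilage that is being replaced by bone, so neighbouring cartilage and bone-resorbing cells are part of the same digest.

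In GRCm38 (GENCODE M21), Bglap (ENSMUSG00000074483, chr3:88383501-88384464), Bglap2 (ENSMUSG00000074486, chr3:88377736-88378699) and Bglap3 (ENSMUSG00000074489, chr3:88368616-88372743) stand in a row on the minus strand of chromosome 3. Ifitm5 (ENSMUSG00000025489) lies at chr7:140948958-140950291 on the minus strand, Car3 (ENSMUSG00000027559) at chr3:14863512-14872523 on the plus strand and Slc36a2 (ENSMUSG00000020264) at chr11:55158470-55185077 on the minus strand. All 6 are annotated as protein-coding genes. The Bglap and Bglap2 transcripts are 98.9% identical over 439 aligned bases, and Bglap3 is 96.4% identical to Bglap, so reads may be divided among them and their separate values are uncertain.

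Promoter sequences are shown for both genes that define the cells and have an entry in the RefSeq table used (GRCm38.p6), and for Serpinf1, a secreted protein that was higher in these cells than in osteocyte-like cells, in Wif1 cells and in Ifitm5 cells with less osteocalcin (comparisons described further on). Each is printed 5′ to 3′ on the gene's own strand, as the bases before the RefSeq start that no GENCODE transcript of the gene covers, and all 3 genes lie on the minus strand: Bglap at chr3:88384467-88384716, Ifitm5 at chr7:140950292-140950493 and Serpinf1 at chr11:75422702-75422873. Capitals mark ACCACA or its reverse complement TGTGGT (the core of the RUNX motif), TATAAA or its reverse complement TTTATA (the TATA box) and CCAAT or its reverse complement ATTGG.
Bglap: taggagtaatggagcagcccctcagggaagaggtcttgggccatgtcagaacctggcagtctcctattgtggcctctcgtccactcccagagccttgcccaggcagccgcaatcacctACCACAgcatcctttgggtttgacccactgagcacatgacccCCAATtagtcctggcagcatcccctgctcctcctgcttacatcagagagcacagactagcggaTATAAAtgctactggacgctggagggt
Ifitm5: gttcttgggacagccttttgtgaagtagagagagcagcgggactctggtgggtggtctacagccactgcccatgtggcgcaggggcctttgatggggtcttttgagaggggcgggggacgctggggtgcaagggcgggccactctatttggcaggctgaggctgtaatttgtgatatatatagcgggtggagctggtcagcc
Serpinf1: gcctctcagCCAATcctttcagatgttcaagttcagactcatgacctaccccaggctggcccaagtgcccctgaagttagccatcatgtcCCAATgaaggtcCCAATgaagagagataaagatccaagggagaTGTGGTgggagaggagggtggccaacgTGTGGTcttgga
In Bglap the marked words begin 132 bases (ACCACA), 90 bases (CCAAT) and 27 bases (TATAAA) before the start, and none overlaps another. Ifitm5 had none of these words in the 250 bases before its start. Serpinf1 had TGTGGT at 117 and 90 bases and CCAAT at 241, 160 and 148 bases before its start. Over 32851 RefSeq windows of 250 bases, on both strands, 14.05% held ACCACA, 12.4% held TATAAA and 33.8% held CCAAT, so single matches of this kind are common.

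**Figure D1:**
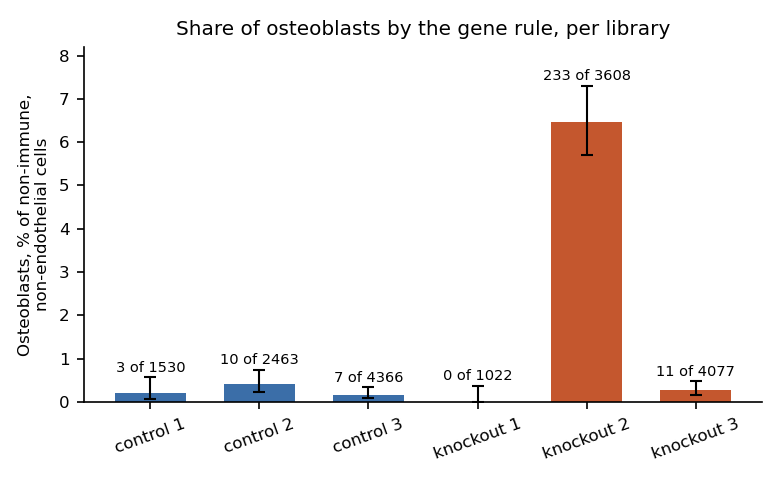
Osteoblasts found by the rule as a percentage of the non-immune, non-endothelial cells of each library (y axis), with 95% Wilson intervals as error bars and cell numbers above the bars. Knockout library 2 stands at 6.46%, and the other 5 libraries lie between 0% and 0.406%.

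Many cells lay close to the thresholds. Of 17066 cells that passed the filters on depth, Ptprc and Cdh5, 2182 held at least 3 Ifitm5 UMIs, and 318 of these met the Bglap condition. The Dmp1 and Phex condition then removed 54. Most cells with Ifitm5 fell below the Bglap threshold. Of these, 1642 met every other condition and 222 held Dmp1 and Phex at the levels set apart. Among the 1642, 28 lay between 0.4% and 0.5%, while 23 members lay between 0.5% and 0.6%. On the side of Ifitm5, 9 members had exactly 3 UMIs, 53 cells that met every other condition had 1 or 2, and 46 had none. A further 25 immune cells and 17 endothelial cells met the Ifitm5 and Bglap conditions.

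Ifitm5 was at 439, 638 and 1001 CPM in the controls and at 1119 and 866 CPM in the knockouts, in the order of the library numbers used throughout (1 to 3, then 2 and 3). Bglap was at 16599.8, 20359 and 20661 CPM in the controls and 18630.3 and 11629.8 CPM in the knockouts, and Bglap2 at 5446, 6082 and 5914 and 4505 and 3432 CPM. Both osteocalcin genes were lowest in knockout library 3, and the ratio of Bglap to Bglap2 UMIs was 3.05, 3.35, 3.49, 4.14 and 3.39 in the 5 libraries. The cells were selected on these genes, so the levels are descriptions.

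Car3 and Slc36a2 were not part of the rule and stood above the immune cells of the same library in all 5 libraries. Car3 was at 994, 789.8 and 2029 CPM in the controls and at 1051 and 425 CPM in the knockouts. Slc36a2 was at 288, 213 and 303 CPM and 238 and 110.3 CPM. Knockout library 3 was lowest for both, and the groups overlapped for both. In immune cells of the same digests (Ptprc at least 2 UMIs), which should lack these genes, Car3 was at 2.29, 2.90 and 5.01 CPM in the controls and 77.5 and 7.61 CPM in the knockouts, and Slc36a2 at 3.93, 1.18 and 3.70 and 23.7 and 3.64 CPM. With every cell thinned to 3000 UMIs, Car3 was found in 206 of 233 osteoblasts of knockout library 2 (88.4%, unthinned 98.3%) and in 9.44% of its immune cells (unthinned 21.3%), whose median depths were 19091 and 8762 UMIs. In control library 2 the thinned shares were 70.0% of 10 osteoblasts and 0.374% of immune cells. Immune cells held Bglap at 61.3 CPM in control library 2, 447 CPM in knockout library 2 and 66.1 CPM in knockout library 3, so this background was highest in the library with most osteoblasts.

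**Figure D2:**
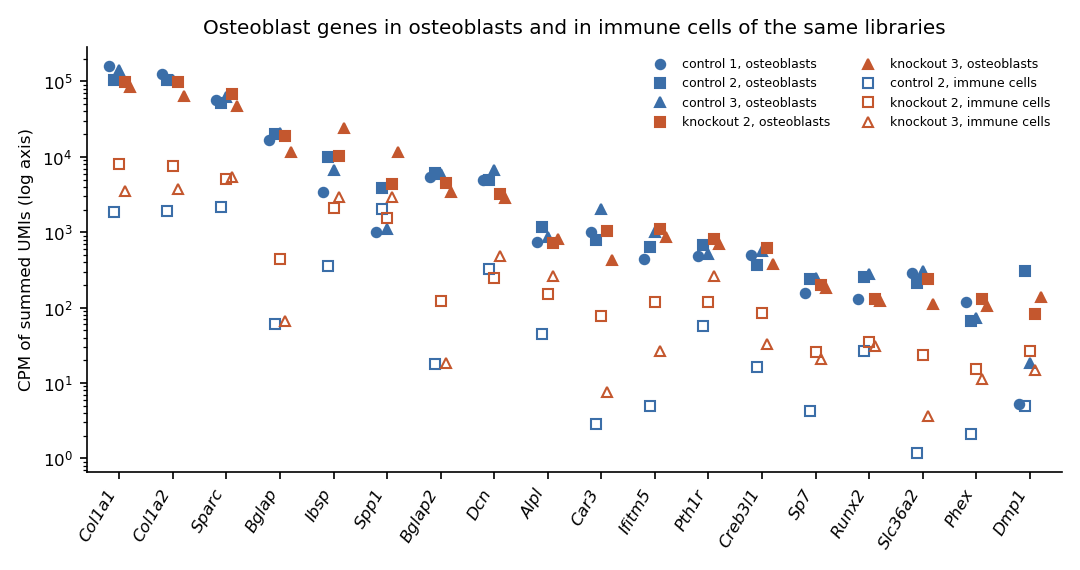
CPM (log axis) of 18 genes in osteoblasts of 5 libraries (filled) and in immune cells of 3 of these libraries (open). All 18 lie higher in the osteoblasts than in the immune cells of these 3 libraries, and Ifitm5, Bglap, Bglap2, Dmp1 and Phex belong to the rule. Immune cells of control libraries 1 and 3 are not drawn. There Spp1 was lower in osteoblasts (1015 and 1093 CPM) than in immune cells (1934 and 3934 CPM).

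Of the 5 markers of the cells, Ifitm5, Bglap and Bglap2 belong to the rule, so their presence was set by it. Car3 and Slc36a2 were found in all 5 libraries with osteoblasts. Of the listed osteocyte genes Sost, Fgf23 and Mepe were at or near 0 while others were present. Col1a1 and Col1a2, the chains of type I collagen, made up 28.3%, 20.8% and 24.6% of all osteoblast UMIs in the controls and 19.7% and 14.9% in knockout libraries 2 and 3. Ibsp, bone sialoprotein, was at 3463, 10086 and 6639 CPM in the controls and 10368 and 24198 CPM in the knockouts. Sp7, the transcription factor osterix, ran from 157 CPM in control library 1 to 248 CPM in control library 3. Runx2, which acts before it, was at 131, 255 and 275 and 130.5 and 121 CPM, and Alpl, the phosphatase that frees phosphate for mineral, at 743, 1191 and 872 and 725 and 811 CPM. Of 19 listed osteocyte genes, 6 were found in all 5 libraries and 3 in none, and they summed to 832, 1318 and 661 CPM in the controls and 737 and 910.3 CPM in the knockouts, led by Hpgd, which breaks down prostaglandins. Sost was 0 in 4 libraries and 0.903 CPM in knockout library 2, Fgf23 was 0 in all 5, and Mepe was 0 in the 3 controls and 6.55 and 5.52 CPM in the knockouts.

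The 22 listed bone matrix proteins summed to 370804, 295209 and 340508 CPM in the controls and 297494 and 253147 CPM in the knockouts. The 10 most abundant genes of each library, which include the nuclear RNA Malat1 beside matrix genes, took 40.3%, 33.3% and 37.8% of osteoblast UMIs in the controls and 33.2% and 27.7% in the knockouts. Sparc, a collagen-binding glycoprotein also called osteonectin, was the third most abundant gene by mean and the steadiest of the leading matrix genes, at 56260.4, 51278 and 61661 CPM in the controls and 68153 and 47319 CPM in the knockouts. Spp1, osteopontin, was at 1015, 3901 and 1093 and 4429 and 11426 CPM, and Mgp, an inhibitor of calcification, at 706, 134 and 211 and 46.1 and 4585 CPM. Dcn, a small proteoglycan that binds collagen fibrils, was at 4886, 4915 and 6768 and 3261 and 2885 CPM, and Col11a1, a fibril-forming collagen that co-assembles with others, at 6853, 4624 and 5106 and 3340.01 and 2803 CPM. Knockout library 3 was the highest of the 5 for Spp1, Mgp and Ibsp and the lowest for Dcn and Col11a1. Of the 22 bone matrix proteins listed, 21 were found in all 5 libraries, and only Chad, a cartilage-enriched proteoglycan that binds integrins, was 0 in 1 of them.

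The machinery that folds and exports collagen was complete: all 31 listed genes were found in all 5 libraries. Serpinh1, the collagen chaperone, led at 1972, 2515 and 3581 CPM in the controls and 4201 and 3117 CPM in the knockouts. Pcolce, which speeds removal of the procollagen tail, was at 952, 680.5 and 1001 and 1454 and 959.96 CPM, and Bmp1, the protease that removes it, at 643, 492 and 588 and 862 and 552 CPM. Lox, which begins collagen crosslinking, was at 936, 875 and 946 and 862 and 712 CPM. Creb3l1, the transcription factor that drives secretion genes in bone, was at 492, 371 and 560.1 and 610.4 and 375 CPM. Lox varied by less than the others over the 5 libraries, whereas Serpinh1 was lowest in control library 1 and highest in knockout library 2.

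Among 23 receptors and junction genes, Pth1r, the receptor of parathyroid hormone, was at 481, 674 and 514 CPM in the controls and 824 and 706 CPM in the knockouts. Gja1, the gap junction protein connexin 43, was at 492, 1106 and 854 and 438 and 392 CPM. Pth1r was higher in both knockout libraries than in any control, and Gja1 lower, each without a test past the threshold. Such an order was common: of 2424 genes tested over the 5 libraries, both knockouts lay above all controls for 16.8% and below them for 12.6%. Genes by which bone cells act on osteoclasts were scarce: Tnfsf11 (RANKL) was 0 in 4 libraries and 2.03 CPM in knockout library 2, and its decoy receptor Tnfrsf11b was at 36.6, 97.2 and 0 and 5.19 and 22.1 CPM. Of the secreted WNT antagonists, Wif1 was at 47.1, 42.5 and 101 and 74.3 and 116 CPM and Dkk1 was 0 in the controls and 20.3 and 44.1 CPM in the knockouts. In the IFITM family, Ifitm2 was at 235, 286 and 367 and 410.4 and 309 CPM and Ifitm3 at 283, 164 and 193 and 330.3 and 166 CPM, both above Ifitm1, which reached 30.4 CPM at most.

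Markers of other cells were present and moved with the library. The 12 chondrocyte markers summed to 11023, 6726 and 5363 CPM in the controls and 3623 and 14239 CPM in the knockouts, of which Col11a1 (also made by bone cells) was the largest share in control libraries 1 to 3 and knockout library 2, and Col2a1 was at 2244, 1160.4 and 64.3 and 121 and 6256 CPM. The 8 hypertrophic chondrocyte markers, which include Ibsp, summed to 4975, 11173 and 7557 CPM in the controls and 11831 and 30713 CPM in the knockouts, and Col10a1 was at 727, 30.4 and 27.5 and 11.7 and 4684 CPM. Knockout library 3 was highest in both sums. The 9 osteoclast markers summed to 162, 207 and 248 CPM in the controls and 641 and 1782 CPM in the knockouts, with Acp5, Ctsk and Mmp9 found in all 5 libraries and Calcr at 0 in all but knockout library 2. The 10 neutrophil markers summed to 47.1, 808 and 367 CPM in the controls and 1639.8 and 723 CPM in the knockouts, led by S100a8 or S100a9, and the 10 macrophage markers to 152, 200.5 and 229.6 CPM in the controls and 628 and 309 CPM in the knockouts. The 8 fibroblast markers summed to 2794, 1361 and 1625 CPM in the controls and 255 and 1214 CPM in the knockouts, nearly all of it Col3a1, a collagen of soft tissue. The 6 erythroid markers summed to 0, 36.5 and 119 CPM in the controls and 218 and 27.6 CPM in the knockouts, the 8 endothelial markers to 36.6, 72.9 and 27.5 CPM in the controls and 86.2 and 60.7 CPM in the knockouts and the 8 pericyte markers to 303, 188 and 101 CPM in the controls and 75.8 and 177 CPM in the knockouts. The 6 tendon markers summed to 225, 237 and 45.9 CPM in the controls and 109 and 314 CPM in the knockouts, the 6 marrow stromal markers to 26.2, 103 and 184 CPM in the controls and 48.8 and 33.1 CPM in the knockouts and the 6 muscle markers to 10.5, 12.2 and 0 CPM in the controls and 2.71 and 0 CPM in the knockouts. The erythroid gene Slc4a1, the tendon gene Kera and the muscle genes Myh4 and Myh1 were at 0 in all 5 libraries. The part of these cells in the osteoblast values was not tested.

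Genes of the dissociation response also moved with the library. The 15 listed genes summed to 3458, 10140.2 and 4454 CPM in the controls and 1754 and 13015 CPM in the knockouts. Hspa1a, an inducible heat shock protein, was at 78.5, 1385 and 303 CPM in the controls and 50.3 and 1666 CPM in the knockouts, and Fos, an early response transcription factor, at 795, 2102 and 882 and 250.3 and 2218 CPM. Control library 2 and knockout library 3 were high and knockout library 2 was low for both genes. Its part in the values of other genes was not tested.

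Knockout library 2 alone had enough cells to describe how osteoblasts differed from each other. Ifitm5 ran from 3 to 101 UMIs per cell (median 19), the osteocalcin share from 0.504% to 11.5% of UMIs (median 1.54%) and depth from 3146 to 50814 UMIs (median 19091). Variation beyond counting error was measured as a coefficient of variation (CV) over 1966 genes with a mean of at least 1 UMI per cell, and its median was 0.304. Sp7 (0.169), Col1a2 (0.259) and Col1a1 (0.274) lay below that median and Sparc (0.308) close to it, while the matrix genes Dcn (0.448), Col11a1 (0.481) and Lum (0.563) lay above it. Bglap (0.940), Bglap2 (0.987) and Ibsp (0.864) were higher still, and Car3 (0.613) and Slc36a2 (0.535) lay between these and the median.

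The 15 most variable genes included many that mark blood cells. Hbb-bs, a globin gene, led with a CV of 13.2, and 1 cell held 87.5% of its UMIs. Elane, a neutrophil granule protease, followed at 12.5 with 88.3% of its UMIs in 1 cell, then Camp (8.28), Retnlg (6.26), S100a8 (3.85), Ngp (3.64) and S100a9 (3.57), all neutrophil genes. Lgals3 (2.65), C1qb (2.60), C1qa (2.52), Fcer1g (2.23) and Fth1 (2.16), genes of macrophages and iron storage, came lower. Of bone and cartilage genes, Mmp13, a collagenase, had a CV of 3.49, a median of 1 UMI and a maximum of 458, and the top cell held 31.5% of its UMIs. Dmp1 (2.74), which the rule limits only together with Phex, and Col2a1 (2.61) completed the list. Spp1, the 20th in this order, had a CV of 1.96, with a median of 29 and a maximum of 1564 UMIs, and its top cell held 7.97% of the total.

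**Figure D3:**
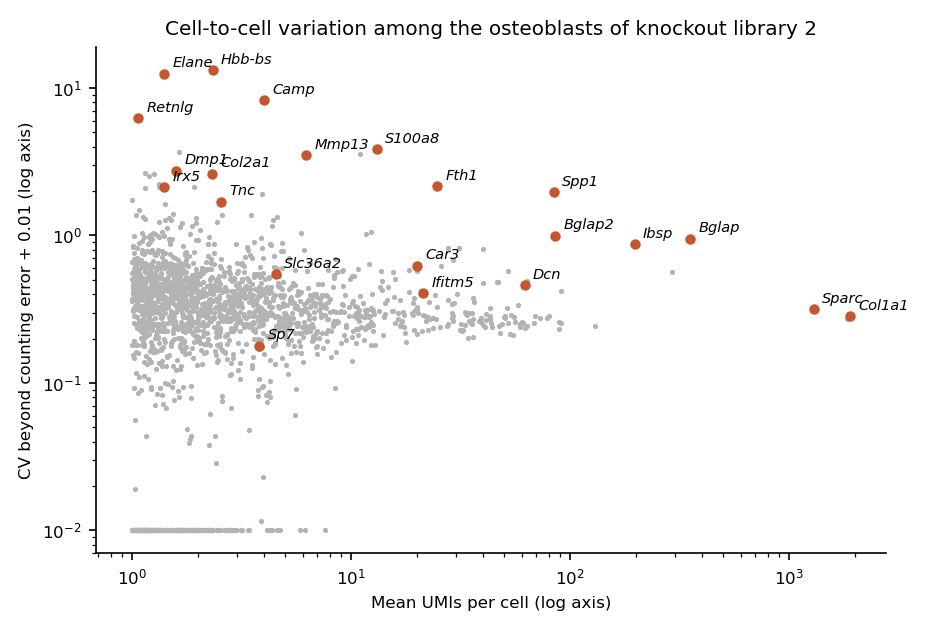
Mean UMIs per cell (x axis, log) against the coefficient of variation beyond counting error plus 0.01 (y axis, log) for 1966 genes in the 233 osteoblasts of knockout library 2. Hbb-bs and Elane top the plot at 13.2 and 12.5, and Col1a1, Sparc and Sp7 lie near or below the median of 0.304.

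Osteoblasts were next set beside 4 other groups of cells within the libraries that held at least 10 cells of each, namely control library 2 and knockout libraries 2 and 3. UMIs were summed per library and group and tested with edgeR's quasi-likelihood F test with the library as a block, and p-values were adjusted by Benjamini-Hochberg over all genes tested. Genes of either gate were left out, and Bglap3 is not read as a result because of its likeness to the rule's genes. Each group was cut from the same cells that were then tested, and all comparisons share the same osteoblasts. Adjusted p-values therefore describe how far apart the groups lie and are not independent evidence of types.

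Osteocyte-like cells were the 276 cells that met the Ifitm5 condition and held at least 5 Dmp1 and 2 Phex UMIs, of which 54 were set apart by the rule and 222 had less osteocalcin than its threshold. Osteoblasts held more Dcn and Lum, proteoglycans that bind collagen fibrils, and less of most listed osteocyte genes that were tested. Of 7152 genes tested, 9 were higher in osteoblasts (0.126%) and 44 lower (0.615%), 0.741% in all, and 7.54% had an unadjusted p below 0.05. Dcn was at 4915, 3261 and 2885 CPM in the osteoblasts of control library 2 and knockout libraries 2 and 3 and at 1799, 1739 and 1197 CPM in the osteocyte-like cells. Its log2 fold change was 1.24 ± 0.10 (SE, adjusted p = 9.7e-04), higher in 3 of 3 libraries with no overlap. Lum, a related proteoglycan, was higher by 1.06 ± 0.12, and so were Car3 (0.99 ± 0.17), Cpz, a carboxypeptidase that binds WNT proteins (1.16 ± 0.19), Cthrc1 (0.75 ± 0.14), Serpinf1, the antiangiogenic factor PEDF (0.68 ± 0.09), and Chn1 (1.52 ± 0.24). These 7 were all the genes that met the naming rule on this side. The naming rule took genes past the threshold, of 1 sign in every library used and with at least 100 CPM in the higher group. For genes named by it, the same direction in 3 of 3 libraries was required, and direction on leaving out a library was largely set in advance.

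On the lower side 23 genes met that rule. Pdpn, the podoplanin of osteocyte processes, was at 24.3, 12.6 and 11 CPM in osteoblasts and 337, 98.9 and 83.5 CPM in osteocyte-like cells (log2 fold change -3.03 ± 0.25, adjusted p = 9.7e-04). Ptprz1, a receptor phosphatase, was at 30.4, 47.6 and 138 and 1249.6, 404 and 482 CPM (-3.06 ± 0.41), and Ackr3, a scavenging chemokine receptor, at 0, 2.71 and 11 and 233, 47.7 and 106 CPM (-4.18 ± 0.39). For each of these genes every osteoblast value lay below every osteocyte-like value. Bmp2 (-2.56 ± 0.34), Bmp4 (-2.18 ± 0.31) and Bmp8a (-1.90 ± 0.21), ligands of the BMP pathway, and Fam20c (-1.79 ± 0.31), the kinase that phosphorylates secreted matrix proteins, were also lower. Of 19 listed osteocyte genes 14 were tested, and 9 were lower: Mepe, Pdpn, Cd44, Irx5, Irx3, Ptprz1, Ackr3, Fbln7 and Hpgd. None was higher, and their median log2 fold change was -1.63 against -0.0039 for all genes.

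Type I collagen, transcription factors and the collagen machinery did not separate the 2 groups at the threshold. None of 14 transcription factors tested and none of 31 genes of collagen folding passed, with median log2 fold changes of 0.02 and 0.11. Of the 22 matrix proteins Ibsp (-1.35 ± 0.09) and Spp1 (-0.57 ± 0.08) were lower in osteoblasts, and Dcn and Lum higher. Hbb-bs was higher (2.29 ± 0.28), the globin gene that 1 cell of knockout library 2 dominates. The count of genes rested on the libraries used: without knockout library 2 it was 9, without control library 2 it was 90, and without knockout library 3 it was 39. Without knockout library 3 the 31 genes that were named or belonged to a list and were tested again all kept their direction, and 20 stayed past the threshold, Dcn, Pdpn, Ptprz1, Ackr3 and Ibsp among them. Serpinf1, Cpz, Car3, Cthrc1, Fam20c, Mepe, Irx3 and Spp1 were among those that did not (edgeR adjusted p = 0.0637 for Serpinf1 and 0.0952 for Car3). Without knockout library 2, 18 of the genes of largest fold were tested again, all kept their direction and 4 stayed past the threshold, Dcn, Pdpn, Bmp4 and AC161119.1.

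**Figure D4:**
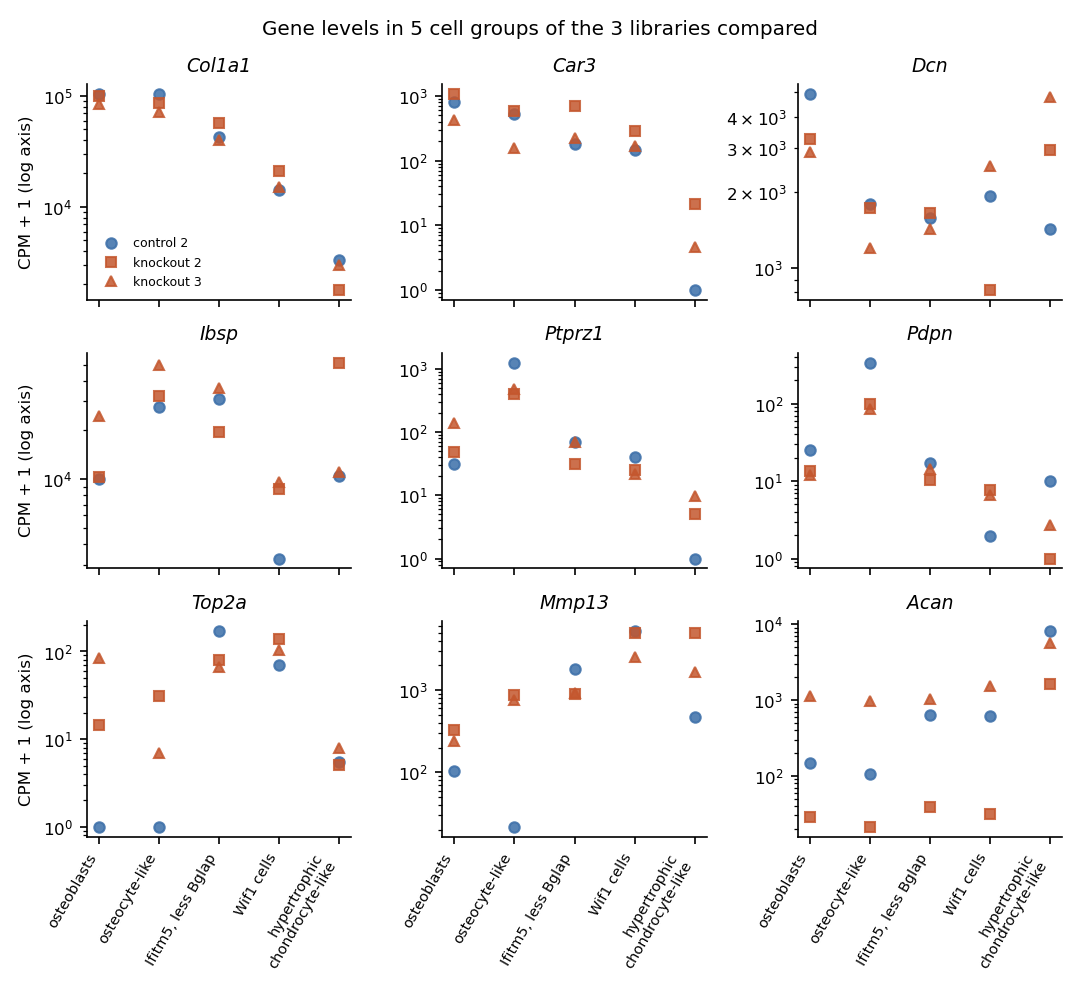
CPM plus 1 (log axis) of 9 genes in the osteoblasts and 4 other cell groups (x axis) of control library 2 and knockout libraries 2 and 3 (points). Dcn and Car3 lie higher in osteoblasts than in osteocyte-like cells in all 3 libraries, and Ptprz1 and Pdpn lie lower.

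Cells that met every condition but the osteocalcin share numbered 1642, and this comparison was added after the data were seen. Osteoblasts held more Col1a1 and Col1a2 in these libraries and less of most cell cycle genes. Of 11306 genes, 103 were higher (0.911%) and 226 lower (2%), 2.91% in all, and 10.7% had an unadjusted p below 0.05. Col1a1 was at 103049, 99742 and 84570.1 CPM in the osteoblasts and 42995, 57425 and 39819 CPM in the cells with less osteocalcin, higher by 1.24 ± 0.18 on the log2 scale (± SE; adjusted p = 8.3e-09). Col1a2 (1.24 ± 0.18), Sparc (1.12 ± 0.18), Dcn (1.40 ± 0.18), Serpinf1 (1.48 ± 0.18), Cpz (1.89 ± 0.21), Car3 (1.37 ± 0.19), Thbs1, a matricellular protein (1.37 ± 0.19), and Adamts2, the protease for the amino-terminal procollagen tail (1.05 ± 0.20), were higher too. Each of these was higher in 3 of 3 libraries, which the naming rule required.

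Mmp13 was at 103, 328 and 237 CPM in osteoblasts and 1801, 886 and 933 CPM in the cells with less osteocalcin (-2.04 ± 0.20). Ibsp was lower in osteoblasts as well, at 10086, 10368 and 24198 against 30826, 19309.7 and 36074 CPM (-0.83 ± 0.18), although both groups are rich in it. Of 18 cell cycle genes 13 were lower and none higher, with a median of -1.23 against -0.07 for all genes; Top2a, a topoisomerase of dividing cells, was at 0, 13.3 and 82.8 and 170.4, 79.5 and 65.3 CPM (-1.85 ± 0.27), and Ccnd1, a cyclin, was lower by a log2 fold change of -1.49 ± 0.23. Of 22 matrix proteins, Bglap3 included, 10 were higher and 4 lower (median 0.39), while none of 16 transcription factors passed in either direction (median -0.01). Of 11 chondrocyte markers tested 7 were lower and 1, Col11a1, higher; Col2a1 was at 1160.4, 121 and 6256 CPM in osteoblasts and 10798, 129.8 and 7472 CPM in the others. DESeq2 called 55 genes in place of 329, and edgeR called 59 without knockout library 2 and 230 without knockout library 3. In the last fit all 73 named or listed genes kept their direction and 53 stayed past the threshold, but the type I collagen genes, Sparc and Ibsp did not: Col1a1 had a log2 fold change of 1.28 ± 0.78 (edgeR adjusted p = 0.803) and Ibsp one of -1.01 ± 0.52 (0.623).

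Wif1 cells, 515 in all, had at least 3 Wif1 UMIs and a UMI of Kcnk2 or Gdpd2, the markers of osteoprogenitors. Markers of marrow stroma were also high in them (Cxcl12 at 2670.2, 359.8 and 161 CPM, and Adipoq at 183, 11.4 and 0.614 CPM against 0 in all osteoblasts of these libraries), so they are called by their gene here. Of 10010 genes, 696 were higher in osteoblasts (6.95%) and 1011 lower (10.1%), 17.1% in all, and 26.4% had an unadjusted p below 0.05. Matrix genes were higher in osteoblasts. Col1a1 was at 103049, 99742 and 84570.1 CPM in osteoblasts and 14130.2, 21087 and 15038 CPM in Wif1 cells (2.99 ± 0.17, adjusted p = 3.4e-44). Of 22 matrix proteins 15 were higher, Bglap3 among them, and 5 lower, with a median of 1.56 against -0.10 for all genes. Of 31 genes of collagen folding and secretion 19 were higher and 1, Loxl1, lower (median 0.92). Serpinh1 (1.07 ± 0.18), Lox (2.06 ± 0.20) and P4ha2, a subunit of collagen prolyl hydroxylase (1.28 ± 0.24), were among those higher.

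Of 16 osteoblast transcription factors 7 were higher, among them Sp7 (1.35 ± 0.23), Dlx3 (1.92 ± 0.35) and Creb3l1 (1.43 ± 0.21), and Msx1 and Runx3 were lower. Car3 (2.37 ± 0.21) and Slc36a2 (1.93 ± 0.24) were higher in 3 of 3 libraries. Other genes at the top of the list were Entpd3, an ectonucleotidase (3.00 ± 0.28), Slc13a5, a citrate transporter (2.87 ± 0.25), Col11a2 (2.85 ± 0.21), Col22a1 (2.68 ± 0.24), Nupr1 (2.59 ± 0.20), Cgref1 (2.58 ± 0.22) and Mlip (2.76 ± 0.27).

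Genes of marrow stroma, pericytes and the cell cycle were lower in osteoblasts. Cxcl12, the chemokine that keeps blood stem cells in marrow, was at 18.2, 11.3 and 5.52 CPM (-4.96 ± 0.30), and Tnfsf11 (-4.74 ± 0.43), Csf1 (-3.10 ± 0.31) and Sema3a (-1.92 ± 0.63), which act on osteoclasts, were lower as well. Tnfrsf11b was higher (1.49 ± 0.48), although at 97.2, 5.19 and 22.1 against 5.82, 8.84 and 10.4 CPM it was not so in every library. All 6 marrow stromal markers and 7 of 8 pericyte markers were lower, including Acta2 (-4.13 ± 0.33). Pdgfrb, the receptor of PDGF-B, was at 24.3, 7.45 and 11 against 259, 324 and 111 CPM (-4.39 ± 0.35). Of 18 cell cycle genes 16 were lower and none higher (median -1.39). DESeq2 called 653 genes in place of 1707, and edgeR called 399 without knockout library 2 and 1639 without knockout library 3, where all 173 named or listed genes kept their direction and 158 the call.

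Hypertrophic chondrocyte-like cells, 948 in all, had at least 2 Ihh UMIs and at least 0.5% of UMIs from Col10a1; Pth1r, Mmp13, Rbp4 and Pank1 of the same marker list were higher in them than in osteoblasts. Of 7654 genes, 401 were higher in osteoblasts (5.24%) and 464 lower (6.06%), 11.3% in all, and 22.7% had an unadjusted p below 0.05. Both markers outside the rule were among the highest: Slc36a2 was at 213, 238 and 110.3 CPM against 0, 4.09 and 0.823 CPM (7.45 ± 0.55, adjusted p = 4.1e-06), and Car3 at 789.8, 1051 and 425 against 0, 20.4 and 3.57 CPM (7.42 ± 0.67). Col1a1 was higher by 5.40 ± 0.32, and Kazald1 (6.03 ± 0.55), Col13a1 (5.98 ± 0.43), Fat3 (5.74 ± 0.53) and Kcnk1 (5.31 ± 0.47) followed. Of 15 transcription factors 5 were higher, among them Sp7, Dlx3 and Creb3l1, and none was lower. Ibsp and Spp1, made by both kinds of cell, did not pass the threshold.

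All 12 chondrocyte markers had negative log2 fold changes, and 10 passed (median -4.75). Matn1, a cartilage matrix protein, was 0 in the osteoblasts of all 3 libraries and 239, 106 and 118 CPM in the hypertrophic cells. Col9a2, Hapln1 and Snorc, further cartilage genes, were lower by fitted log2 fold changes of -6.10, -5.59 and -5.91, and so were F13a1, a transglutaminase (-6.61), and Gdf5, a joint growth factor (-5.72). Of 16 genes of glycolysis 6 were lower and none higher, among them Slc2a1, the glucose transporter (-3.42 ± 0.62), Pgk1 (-2.45 ± 0.57) and Gapdh (-1.32 ± 0.36), with a median of -1.17 against -0.05 for all genes; without knockout library 3 Slc2a1 and Ldhb stayed past the threshold and the other 4 did not. Of 10 cell cycle genes 5 were higher in osteoblasts and none lower, and Ube2c, a mitotic ubiquitin-conjugating enzyme, was at 12.2, 22.3 and 93.8 CPM in osteoblasts and 3.02, 0 and 7.68 CPM in hypertrophic cells. Without knockout library 3 H2afz, 1 of the 5, did not pass and the other 4 were not among the genes tested. Knockout library 2 had 11 hypertrophic cells, and without it 770 genes passed in place of 865, while without knockout library 3 it was 598. There all 99 named or listed genes kept their direction and 82 the call, and Sp7, Gapdh and Pgk1 were among those that lost it (edgeR adjusted p = 0.088, 0.153 and 0.0931).

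The first comparison of genotypes asked whether knockout calluses held another share of these cells. The share of osteoblasts among non-immune, non-endothelial cells was 0.196% (95% Wilson interval 0.0667% to 0.575%), 0.406% (0.221% to 0.746%) and 0.160% (0.0777% to 0.331%) in the controls. It was 0 of 1022 cells in knockout library 1, which allows a share of up to 0.294% when a count of 0 is read as at most 3 (the Wilson upper limit was 0.374%), then 6.46% (5.70% to 7.31%) and 0.270% (0.151% to 0.483%) in knockout libraries 2 and 3. The intervals cover counting error only. Knockout library 2 was high and the other 5 were low, and the groups overlapped. The mean was 0.254% ± 0.133 (SD, n = 3) in controls and 2.24% ± 3.65 (SD, n = 3) in knockouts, a difference of 1.99 percentage points (two-sided exact permutation test, p = 0.8; the smallest p this design allows is 0.1). Without knockout library 2 the difference was -0.119 percentage points (exact permutation p = 0.6), and without knockout library 3 it was 2.97 (exact permutation p = 0.4). Within replicate numbers 1, 2 and 3, which go with the counting version and the gene list, the knockout library differed from the control by -0.196, 6.05 and 0.109 percentage points. Fewer osteoblasts in the tissue and fewer released by digestion cannot be told apart.

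The second comparison asked which osteoblast genes differed between genotypes. Only control library 2 had at least 10 osteoblasts among the controls, so 1 control stood against knockout libraries 2 and 3 and was assumed to vary as they do. Of 2835 genes none was higher in knockouts and 1 was lower (0.0353%), while 227 had an unadjusted p below 0.05 (8.01%) and DESeq2 called none (41 at an unadjusted p below 0.05). In simulated data of this size edgeR recovered 17.9% of genes changed by a log2 fold change of 3. With all 5 libraries that held osteoblasts, a fit added after the data were seen, none of 2424 genes passed and 201 had an unadjusted p below 0.05 (8.29%). In the simulated data for that fit 96.6% of changes of 3 and 8.62% of changes of 1 were recovered. Both simulations used the fitted trend of spread with abundance, with no separate spread for single genes or for libraries of few cells. In the real fit over 5 libraries Acp5 (log2 fold change 3.84) and Rps3a3 (-8.21) did not pass. The recovered shares therefore do not say that changes of this size were absent. DESeq2 called 3 genes in the 5 libraries, Acp5, Mmp9 and Ecm1, and edgeR with the replicate number as a block called Rps3a3, Acp5 and Xist. Without knockout library 3 edgeR called 52 of 3032 genes in that fit (1.72%; 8 higher, 0.264%, and 44 lower, 1.45%, with 6.99% at an unadjusted p below 0.05) and without knockout library 2 it called 8, all higher, so the count rested on single libraries. Each of the last 2 fits sets 1 knockout library against 3 controls and takes its spread from the controls alone, so its calls tell that library from the controls.

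The gene past the threshold was Rps3a3, a near-identical relative of the ribosomal gene Rps3a1. It was at 0, 1075 and 661 CPM in the controls and 0.903 and 11 CPM in the knockouts (log2 fold change -9.06 ± 0.84, SE, adjusted p = 3.5e-06). Control library 1 was at 0, so the groups overlapped. The immune cells of the same 5 libraries held 0.656, 991, 411, 0.74 and 1.15 CPM, high in the same controls, and over 5 libraries the log2 fold change was -8.21 ± 2.13 (adjusted p = 0.502). The call was also lost in DESeq2 (-7.89, adjusted p = 0.549), when mitochondrial genes and genes overlapping ribosomal RNA were left out (-9.12, adjusted p = 0.133) and with osteocyte-like cells kept in (-9.34, adjusted p = 0.688), each with a fold of similar size. For knockout library 2 alone against the 3 controls it was -9.01 ± 1.16 (edgeR adjusted p = 8.4e-10). How reads were divided between the copies is uncertain.

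Acp5 and Mmp9, genes of osteoclasts, were among the 10 smallest p-values and missed the threshold. Acp5, a tartrate-resistant acid phosphatase, was at 20.9, 18.2 and 64.3 CPM in the controls and 201 and 789 CPM in the knockouts, with no overlap. Its log2 fold change was 4.74 ± 0.89 (adjusted p = 0.0514) and 3.84 ± 0.70 over 5 libraries (adjusted p = 0.357). Mmp9, a gelatinase, was at 5.23, 12.2 and 27.5 and 122 and 215 CPM (3.79 ± 0.82, adjusted p = 0.135), and Ctsk, the collagen-degrading cathepsin, named after its values were seen, at 131, 170.1 and 138 and 294 and 717 CPM (1.58 ± 0.60, adjusted p = 0.506). With knockout library 2 alone against the controls Acp5 (2.78 ± 0.57, edgeR adjusted p = 3.9e-04) and Mmp9 (3.31 ± 0.72, 0.00135) passed and Ctsk did not (1.12 ± 0.58, 0.711). Acp5 also passed without likely doublets and without the rule's genes (edgeR adjusted p = 0.00635 and 0.00931). All 3 were far higher in immune cells, where Acp5 was at 1861, 807, 1776, 3656 and 2927 CPM in the 5 libraries, again higher in both knockouts than in any control. The control values of Acp5 rested on 4, 3 and 7 UMIs and those of Mmp9 on 1, 2 and 3, so their folds start from very few counts. The part of free or captured osteoclast RNA in the values of Acp5, Mmp9 and Ctsk was not tested.

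Tyrobp, an adaptor of myeloid receptors, and Sh3bgrl3 showed the same order among the smallest p-values over 5 libraries. Tyrobp was at 15.7, 12.2 and 45.9 and 88.3 and 132 CPM in osteoblasts and 1492, 1949, 1923, 2221 and 1835 CPM in immune cells. Its control values in osteoblasts rested on 3, 2 and 5 UMIs. Postn, a matrix protein of periosteum, was at 241, 444 and 193 and 50.8 and 138 CPM in osteoblasts (-2.31 ± 0.55, adjusted p = 0.137) and at 268, 158, 373, 47.1 and 123 CPM in immune cells. The aggrecanase Adamts5 was at 57.5, 158 and 45.9 and 28.4 and 38.6 CPM (-2.25 ± 0.52, adjusted p = 0.137) beside 7.05, 6.62, 14.5, 9 and 6 CPM in immune cells. Ecm1, a secreted matrix protein, was at 219.7, 115 and 303 and 31.2 and 16.6 CPM (-2.99 ± 0.55 over 5 libraries, adjusted p = 0.357) beside 112, 89.7, 362, 53.2 and 110.2 CPM. These 3 were lower in the osteoblasts of both knockouts than of every control, and so was Postn in immune cells, which held about as much of Postn and Ecm1 as the osteoblasts or more in several libraries. With knockout library 2 alone against the controls Postn (-2.40 ± 0.70, edgeR adjusted p = 0.0456) and Ecm1 (-2.66 ± 0.70, 0.0152) passed, as did Sh3bgrl3 (1.89 ± 0.56, 0.0478), and Adamts5 (-1.50 ± 0.62) and Tyrobp (2.08 ± 0.76, 0.232) did not. Adamts9, Zfp36l2, Ndufa4l2 and Rflnb, also among the 10 smallest p-values, overlapped between groups over 5 libraries, and Ubl4a did not. Ndufa4l2, Rflnb and Ubl4a each rested on 1 UMI in control library 2. Adamts5 rested on 5 UMIs in control library 3 and 7 in knockout library 3, and Ecm1 on 3 UMIs in knockout library 3. Over 2424 genes, both knockout libraries lay above all 3 controls for 407 (16.8%) and below them for 306 (12.6%), so a lack of overlap is common here.

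**Figure D5:**
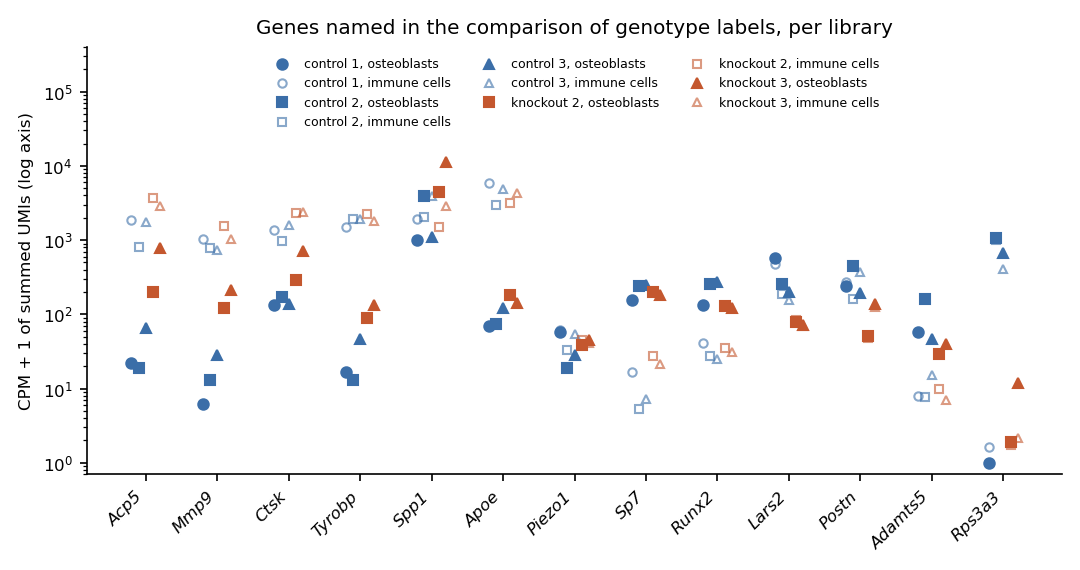
CPM plus 1 (log axis) of 13 genes in osteoblasts (filled) and immune cells (open) of the 5 libraries with osteoblasts, by genotype label (colour). Acp5, Mmp9, Ctsk and Tyrobp lie higher in both knockout libraries and higher still in immune cells, and Rps3a3 is high in control libraries 2 and 3 in both kinds of cell.

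Of the genes that the study names, none passed the threshold. Piezo1 was at 57.5, 18.2 and 27.5 CPM in the controls and 37.2 and 44.1 CPM in the knockouts, from 11, 3, 3, 165 and 8 UMIs, which overlapped and was too sparse to be tested over 3 or 5 libraries. Apoe, a lipid carrier most abundant in macrophages, was at 68, 72.9 and 119 and 182 and 143 CPM (1.24 ± 0.60, adjusted p = 0.61; 0.93 ± 0.39 over 5 libraries, adjusted p = 0.555), beside 5946, 2962, 4884, 3133 and 4357 CPM in immune cells. Lars2, the mitochondrial leucyl-tRNA synthetase, whose counts can include ribosomal RNA reads, was at 570.2, 255 and 202 and 79 and 71.7 CPM (-1.68 ± 0.52, adjusted p = 0.342), with the same order in immune cells (481, 185, 155, 83 and 68.7 CPM). Spp1 (1.04 ± 0.54), Runx2 (-0.95 ± 0.51) and Sp7 (-0.28 ± 0.51) had adjusted p-values of 0.642, 0.642 and 0.849, and Sp7 changed sign when osteocyte-like cells were kept in. With knockout library 2 alone against the controls the log2 fold change was 1.21 for Apoe, -2.03 for Lars2 and 1.30 for Spp1. It was -0.62 for Runx2, 0.016 for Sp7 and 0.18 for Piezo1.

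Gene lists are given by their medians, since none had a member past the threshold. Of 20 nuclear genes of mitochondrial respiration 19 had positive log2 fold changes (median 0.71 against 0.03 for all genes), and 18 of the 18 tested over 5 libraries did (0.57 against -0.01). Control library 2 was the lowest of 3 libraries in other cells as well: the 20 genes summed to 5243, 8229 and 8231 CPM in the osteoblasts of control library 2 and knockout libraries 2 and 3, to 8425, 14357 and 12909.6 CPM in immune cells and to 7181, 9907 and 8762 CPM in the cells with less osteocalcin. Of 13 receptors 1 was positive (median -0.82), and of 12 over 5 libraries 1 (-0.66). Transcription factors had a median of -0.78 and -0.49, matrix proteins -0.26 and -0.50. In the same fits chondrocyte markers had medians of 1.93 and 1.21, osteoclast markers 3.79 and 3.55 and dissociation genes -0.73 and -0.08, and the part of these cells and of the dissociation response in the other lists was not tested. Each median rests mostly on 1 library with 233 cells and another with 11. With knockout library 2 alone against the controls the chondrocyte median turned to -3.30, with 4 of 8 markers lower (Col2a1, Acan, Sox9 and Hapln1), and the dissociation median fell to -1.89, with 5 of 15 genes lower. There respiration genes were positive in 19 of 19 (median 0.74 against -0.05 for all genes) and receptors in 2 of 16 (-0.55), transcription factors had a median of -0.38, matrix proteins -0.28 and osteoclast markers 2.78. Hypertrophic markers had medians of 1.17 and 1.27 over 3 and 5 libraries and 0.66 in that fit, where Mmp13 was higher (2.26 ± 0.57, edgeR adjusted p = 0.00818) and Col10a1 lower (-4.43 ± 0.88, 2.4e-04). Genes of mechanosensing and YAP targets had medians of -0.35, -0.93 and -1.52, with Ccn1 and Ccn2, secreted targets of YAP, lower in that fit. Mgp, Col3a1 and Atf3 were also lower there, and the neutrophil genes S100a8 and Camp higher. In knockout library 2 the top cell held 63.3% of all Camp UMIs and the top cell for S100a8 held 29.1%.

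The number of genes detected per osteoblast overlapped between the genotypes. At 3000 UMIs the median was 1053, 1212 and 1106 genes in the controls and 1112 and 1228 in the knockouts. In the libraries with at least 10 osteoblasts the difference was -42.0 genes (1212 in 1 control against a mean of 1170 in 2 knockouts, with only 3 ways to assign the libraries, so that no small p could be reached), without knockout library 3 it was -100.0 genes, and over 5 libraries 46.3 genes (two-sided exact permutation p = 0.5; the smallest p is 0.1). Without thinning the difference was -539.5 genes. In the same libraries cells with less osteocalcin held 1417, 1356, 1314.5, 1300.0 and 1340.5 genes at that depth, above the osteoblasts in each of the 5, and osteocyte-like cells held 1260.5, 1187, 1164.5, 1151.5 and 1214, above them in 3.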

How the data were processed

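Fracture callus cells of 6 libraries were profiled with a 10x 3′ assay. The authors deposited raw UMI counts per gene and barcode, made with Cell Ranger (6.1.1 for replicate 1 of both groups and 6.1.2 for the rest, per the file headers) on GRCm38; the submitters' processing notes also name Seurat. Only genes listed in all 6 libraries were used (52081). Members and gene lists were chosen with earlier results of these data known.

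Cells were gated on UMI counts as described above, and UMIs were summed per library and group. Genotypes and cell groups were compared with edgeR 4.0.16 in R 4.3.3 (filterByExpr, TMM scaling, quasi-likelihood F test, Benjamini-Hochberg, threshold 0.05) in libraries with at least 10 cells, with the library as a block between cell groups. Shares and genes per cell were compared by exact permutation over libraries. DESeq2 1.42.0, other scaling, filters, gates and left-out libraries were alternatives. Likely doublets (Scrublet, scanpy 1.11.5) were removed only in an alternative. The edgeR steps were tested on simulated data. The SE beside an edgeR log2 fold change is its absolute value divided by the square root of the F statistic.

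Named genes were the markers; in the genotype test the genes past the threshold, the 10 smallest p-values and 6 genes that the study names; in each cell group comparison up to 12 per direction by fold change, of 1 sign in all libraries and with at least 100 CPM; up to 4 abundant members and any called member of each list; the 20 most abundant genes; and the 15 most variable genes. The fit over 5 libraries and the comparison with Ifitm5 cells of lower osteocalcin were added after the data were seen. Results on some genes are not reported here.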

Additional observations from a re-analysis of the deposited data

Results flagged for a closer look

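Xist was at 452 CPM in the osteoblasts of knockout library 3 and at 0 in those of the other 4 libraries with osteoblasts. It stood out because it was at 0 in the controls and no comparison was made to ask about sex-linked genes. It was in the table of the genotype fit (edgeR adjusted p = 0.527). Immune cells of the same library held 447 CPM, and Ddx3y, Eif2s3y and Uty were at 0 in its osteoblasts.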

How the results depend on the processing

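The values rest on 233 cells of knockout library 2 and 3 to 11 cells of each other library, and no genotype fit could be made in the libraries with at least 10 osteoblasts when a library was left out. The difference in share (1.99 percentage points) became -0.119 without knockout library 2 and ran up to 3.11 over the other omissions, and with a replicate block (signs permuted within replicate numbers) its exact permutation p was 0.75. The difference in genes per cell (-42.0) was 46.3 with all 5 libraries, and ran from -100.0 to 16.0 when knockout library 3 or 2 was left out.

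The genotype count of 1 gene became 0 with osteocyte-like cells kept in, 0 in DESeq2, 0 without mitochondrial genes and genes overlapping ribosomal RNA, 2 without the rule's genes, 3 without likely doublets and 8 with no filter on low counts. With all 5 libraries it was 0, or 3 in DESeq2, 3 with the replicate block and from 0 to 52 when 1 library was left out. Without replicate 3 of both groups, which removes knockout library 3, it was 111, with 25 higher and 86 lower. Whether the replicate numbers pair the libraries could not be decided. The deviations of same-numbered libraries had r = -0.25 for replicate 2 and -0.32 for replicate 3 across 2424 genes, but those of the 2 knockout libraries mirror each other by construction. The numbers do go with the processing, since replicate 1 of both groups was counted with another Cell Ranger version and replicate 3 of both against a list of 55357 genes in place of 55450. The log2 fold change of Ndufa4l2 turned to -0.25 with 5 libraries without control library 2. That of Rflnb was -0.11 with 5 libraries, -0.10 in DESeq2 and -0.16 without replicate 3 of both groups, and with 5 libraries it ran from -0.67 to 1.37 when each was left out in turn, below 0 in 3 of 5 omissions (-0.074 without knockout library 3). That of Sp7 was 0.025 with osteocyte-like cells kept in, 0.016 with 5 libraries without knockout library 3 and 0.19 without replicate 3 of both groups. The cause of these changes was not tested.

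Against osteocyte-like cells the count of 53 became 173 with no filter, 139 in libraries with at least 3 cells and from 9 to 90 over omitted libraries. Against Wif1 cells 1707 became 653 in DESeq2 (341 higher, 312 lower) and from 399 to 1639 over omissions, the lowest with 219 higher and 180 lower. Against cells with less osteocalcin 329 became 55 in DESeq2 (31 higher, 24 lower) and from 59 to 237, the lowest with 43 higher and 16 lower. Against hypertrophic cells 865 ran from 598 to 888 over omissions and was 1123 in libraries with at least 3 cells. The naming rule took only genes past the threshold and of 1 sign in every library used. Their direction on leaving out a library was therefore largely set in advance. For the genes of largest fold that the naming rule took, up to 24 in a comparison, all 192 values against Wif1 cells and all 192 against hypertrophic cells kept direction and call, while 24 of 151 against osteocyte-like cells and 18 of 192 against cells with less osteocalcin lost the call and kept direction, 14 of the 24 and 6 of the 18 without knockout library 2. Genotype fits with at least 5 Ifitm5 UMIs, at least 1% osteocalcin, at most 5% mitochondrial UMIs or at least 30 cells, and cell group fits with at least 30 cells, could not be made because too few libraries were left.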
